A study of Mus musculus with 5 samples.

Results

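Glucocorticoid receptors and response genes were examined in small vessels isolated from the brains of WT mice and of hyperglycemic Ins2-AKITA mice. The set holds 9 genes out of 34615 gene symbols in the data. They are the receptors *Nr3c1* and *Nr3c2*, the response genes *Fkbp5*, *Sgk1*, *Tsc22d3*, *Zbtb16*, *Pdk4* and *Errfi1*, and the steroid-activating enzyme gene *Hsd11b1*. The members were given by symbol, each matched 1 Ensembl identifier in the NCBIM37 annotation, and all 9 reached the mean of 1 FPKM that was required for testing. RNA came from 3 WT and 2 Ins2-AKITA mice, with 1 library per mouse. All were C57BL6 males, 26 to 38 weeks old when killed. The Ins2-AKITA mice were heterozygous for a mutation in the insulin 2 gene that harms pancreatic beta cells and leads to lasting hyperglycemia, and the WT mice were littermates without it. The mutation is carried in all cells of these mice, although its toxicity is to beta cells. Fragments were captured from brain tissue digested with collagenase on beads coated with an antibody to PECAM1, so that endothelial cells were collected together with attached cells. Values are FPKM, sequenced fragments divided by the length of the gene and by the size of the library. In such bulk samples, fewer cells of a type and less RNA per cell cannot be told apart.

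Corticosterone, the main glucocorticoid of the mouse, crosses cell membranes and binds receptors that wait in the cytoplasm in a complex with Hsp90 chaperones. The bound receptor moves to the nucleus and attaches to palindromic DNA elements, where it raises or lowers transcription. At the blood-brain barrier glucocorticoids are known for tightening junctions and damping inflammation. Circulating glucocorticoid follows a daily rhythm and rises with stress.

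Sequences are shown for *Sgk1* and *Fkbp5* because they hold the fully palindromic elements found near the members. The element was searched as GNACA, any 3 bases and TGTNC, which reads the same on both strands, and its arm as TGTTCT on either strand. An arm can lie within an element. RefSeq promoter windows (GRCm38.p6, 250 bases before to 50 after a gene start) were found for 7 of the 9 members, with 15 windows in all. The element was in 1 of these 15 windows and in 0.475% of all 32851 windows. The arm was in 4 of the 15 windows and in 19.0% of all windows. The window with the element belongs to *Sgk1*, the gene of a kinase that raises sodium channel and transporter activity. Its 250 bases before the start matched 1 place in NCBIM37, chr10:21713446-21713695 on the plus strand, and the element, in capitals, begins 188 bases before the start. In the NCBIM37 annotation it lies in an intron of *Sgk1*, just before an annotated transcript start inside the gene.
Sgk1 upstream: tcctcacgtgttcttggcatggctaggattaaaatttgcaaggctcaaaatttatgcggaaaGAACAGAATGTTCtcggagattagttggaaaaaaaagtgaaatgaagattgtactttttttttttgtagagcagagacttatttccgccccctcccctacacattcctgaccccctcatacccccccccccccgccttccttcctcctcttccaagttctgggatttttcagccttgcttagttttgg

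Within 10 kb of an annotated transcript start in NCBIM37, 4 of the 9 members held at least 1 element, against 39.6% of 13922 protein-coding genes tested, so that the share among members was near that of other genes. *Fkbp5* held 10, *Sgk1* 4, and *Nr3c2* and *Pdk4* 1 each. Genes with more annotated starts were searched over a longer stretch. A pair of the *Fkbp5* elements had GAACA on the left and TGTTC on the right, the same arms as in *Sgk1*. Both lie in introns of *Fkbp5* on the minus strand, at chr17:28557258-28557288 and chr17:28579356-28579386. Each is printed 5′ to 3′ on the strand of the gene with the element in capitals.
Fkbp5 intron, first: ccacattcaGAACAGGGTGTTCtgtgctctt
Fkbp5 intron, second: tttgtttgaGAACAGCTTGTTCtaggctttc
A match in letters does not show that a receptor binds there.

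In WT mice the members with the highest level per length were *Tsc22d3*, at 47.9 ± 30.3 FPKM (SD, n = 3), and *Sgk1*, at 47.0 ± 31.3 FPKM. *Nr3c2* followed at 34.6 ± 9.03, *Zbtb16* at 29.9 ± 11.9 and *Nr3c1* at 28.7 ± 6.79 FPKM. *Hsd11b1* had 19.6 ± 3.01 and *Fkbp5* 17.9 ± 16.6 FPKM, above *Errfi1* at 10.4 ± 3.63 and *Pdk4* at 9.49 ± 2.77 FPKM. Neighbours in this order differed by less than the larger of their SDs, except *Nr3c1* and *Hsd11b1*. The SD was close to the mean for *Fkbp5*, where WT replicate 1 stood far above the rest.

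Neither receptor passed the test between genotypes. *Nr3c1* encodes the glucocorticoid receptor (ENSMUSG00000024431, minus strand of chromosome 18 of NCBIM37, 39570199 to 39650955). In the order of their replicate numbers, which is kept throughout, the WT mice had 23.0, 26.8 and 36.2 FPKM and the Ins2-AKITA mice 35.8 and 45.4. WT replicate 1 was the lowest of the 5 mice, and Ins2-AKITA replicate 1 lay just below WT replicate 3. On the log2(FPKM + 1) scale, which understates the change of low genes, *Nr3c1* was 0.50 higher in Ins2-AKITA mice (standard error 0.25, 95% interval -0.11 to 1.12, limma p = 0.094 before and 0.90 after adjustment, exact permutation p = 0.3). Astrocyte markers had the same order at both ends: their summed FPKM was lowest in WT replicate 1, at 1494, and highest in Ins2-AKITA replicate 2, at 2990. The part of astrocytes in the *Nr3c1* values was not tested.

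*Nr3c2* encodes the mineralocorticoid receptor, which binds corticosterone as well as aldosterone (ENSMUSG00000031618, chromosome 8 from 79423341 to 79768911). Its FPKM was 40.4, 39.1 and 24.2 in the WT mice against 42.7 and 25.8 in the Ins2-AKITA mice. The values fell into a higher and a lower range within both genotypes, and the groups overlapped throughout. The log2 fold change was -0.02 (standard error 0.33, 95% interval -0.81 to 0.77, limma adjusted p = 0.996), and its sign turned with median-ratio scaling.

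*Hsd11b1* was the single member for which both Ins2-AKITA mice lay above every WT mouse. The enzyme regenerates active corticosterone from its inert keto form inside cells. *Hsd11b1* (ENSMUSG00000016194, chromosome 1 from 195047824 to 195090248) had 22.7, 19.3 and 16.7 FPKM in the WT mice against 24.3 and 27.7 in the Ins2-AKITA mice. The means were 1.33-fold apart, and on the log2 scale the difference was 0.40 (standard error 0.22, limma p = 0.11 before and 0.90 after adjustment, exact permutation p = 0.2). Of all 16286 genes tested, 9.24% showed this, so that 1 of 9 members is near the background. *H6pd*, whose product supplies the cofactor for this reductase, had 6.63, 7.88 and 10.3 FPKM in the WT mice against 4.91 and 9.02 in the Ins2-AKITA mice.

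Of the 6 response genes, 5 were highest in WT replicate 1, at least 1.5 times their value in every other mouse. *Fkbp5* (ENSMUSG00000024222, chromosome 17 from 28536040 to 28654469) encodes a cochaperone that holds the receptor in a state of low affinity, and it is induced by the receptor in turn. Its FPKM was 37.1, 8.99 and 7.67 in the WT mice against 6.69 and 10.3 in the Ins2-AKITA mice. WT replicate 1 was 3.60 times the next highest mouse, and the other 4 mice of both genotypes lay between 6.69 and 10.3 FPKM. The difference on the log2 scale was -0.67 (standard error 0.66, limma p = 0.34 before and 0.90 after adjustment, exact permutation p = 0.8). Without WT replicate 1 it was 0.0032 (standard error 0.32).

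*Tsc22d3* encodes GILZ, a leucine zipper protein that carries part of the anti-inflammatory action of glucocorticoids (ENSMUSG00000031431, chromosome X from 137074067 to 137135198). It had 80.6, 20.9 and 42.1 FPKM in the WT mice against 15.9 and 24.7 in the Ins2-AKITA mice. WT replicate 1 was again the highest, WT replicate 3 was second, and WT replicate 2 lay between the Ins2-AKITA mice. It had the most negative fold change of the 9 genes, -1.03 on the log2 scale (standard error 0.54, 95% interval -2.34 to 0.28, limma p = 0.10 before and 0.90 after adjustment, exact permutation p = 0.3). Without WT replicate 1 the value was -0.56 (standard error 0.41), and without WT replicate 2 it was -1.51 (limma adjusted p = 0.999).

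*Sgk1* (ENSMUSG00000019970, chromosome 10 from 21601990 to 21719709) had the upstream element printed above. Its FPKM was 79.0, 45.7 and 16.4 in the WT mice against 21.9 and 40.1 in the Ins2-AKITA mice. WT mice held both the highest and the lowest value. The log2 fold change was -0.39 (standard error 0.64, limma adjusted p = 0.94), and it was 0.11 without WT replicate 1 and 0.033 without Ins2-AKITA replicate 1.

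*Zbtb16*, the gene of the zinc finger repressor PLZF, had 43.4, 25.2 and 21.1 FPKM in the WT mice against 24.7 and 18.02 in the Ins2-AKITA mice (ENSMUSG00000066687, chromosome 9 from 48462416 to 48644050). *Errfi1*, the gene of an inhibitor of the EGF receptor, had 14.5, 7.81 and 8.82 FPKM in the WT mice against 6.31 and 8.03 in the Ins2-AKITA mice (ENSMUSG00000028967, chromosome 4 from 150228028 to 150243001). In both genes WT replicate 1 stood above a narrow range of the other mice. The log2 fold changes were -0.41 for *Zbtb16* (standard error 0.34) and -0.44 for *Errfi1* (standard error 0.33), with an adjusted p of 0.90 from limma for both. Without WT replicate 1 they were -0.12 and -0.20.

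*Pdk4* was the exception among the response genes. Its kinase blocks pyruvate dehydrogenase and so spares glucose in favour of fatty acids. *Pdk4* (ENSMUSG00000019577, chromosome 6 from 5433351 to 5446309) had 6.57, 9.83 and 12.1 FPKM in the WT mice against 7.35 and 9.55 in the Ins2-AKITA mice. WT replicate 1 was the lowest mouse here, and both Ins2-AKITA values lay within the WT range (log2 fold change -0.13, standard error 0.32, limma adjusted p = 0.96). At most 24.9 fragments lay behind its value in WT replicate 1 and at most 113 in WT replicate 3, by the estimated depth and the longest annotated transcript.

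**Figure D1:**
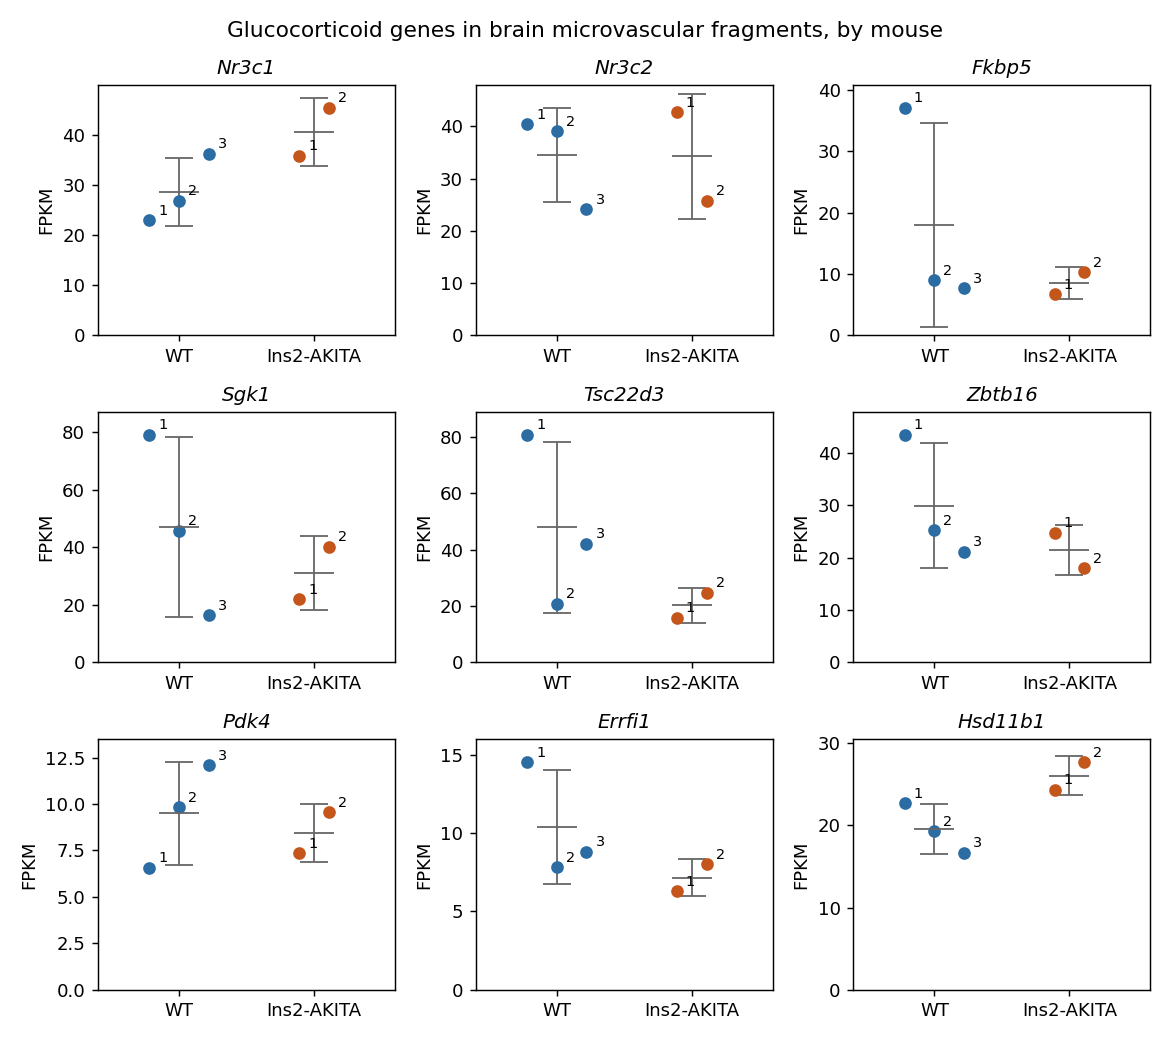
FPKM of the 9 members in each mouse, on linear axes from 0. Points are single mice with their replicate number, blue for WT and orange for Ins2-AKITA, and bars are the mean with 1 SD (n = 3 and n = 2). In the panels of *Fkbp5*, *Sgk1*, *Tsc22d3*, *Zbtb16* and *Errfi1*, WT replicate 1 lies above the other 4 mice.

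Between genotypes, 0 of the 9 members passed an adjusted p of 0.05 in limma, and 0 had an unadjusted p under 0.05. Of all genes tested, 0.0246% passed the adjusted threshold and 4.46% had an unadjusted p under 0.05. The adjusted p of the members ran from 0.90 to 0.996. All 6 response genes had a lower log2 value in Ins2-AKITA mice, as 8718 of all 16286 genes tested had. Their median was -0.43, and the median of the 9 members was -0.39 beside -0.03 for all genes tested. None of the 9 was lower in both Ins2-AKITA mice than in every WT mouse, as 10.3% of all genes tested were. Without WT replicate 1, 2 of the response genes were higher and 4 lower, their median was -0.16 and that of the 9 members was 0.0032. In that fit 0.0436% of 16064 genes passed the adjusted threshold, 3.64% had an unadjusted p under 0.05, and 0 members did either. With 3 mice against 2, the exact permutation test cannot give a p below 0.1.

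**Figure D2:**
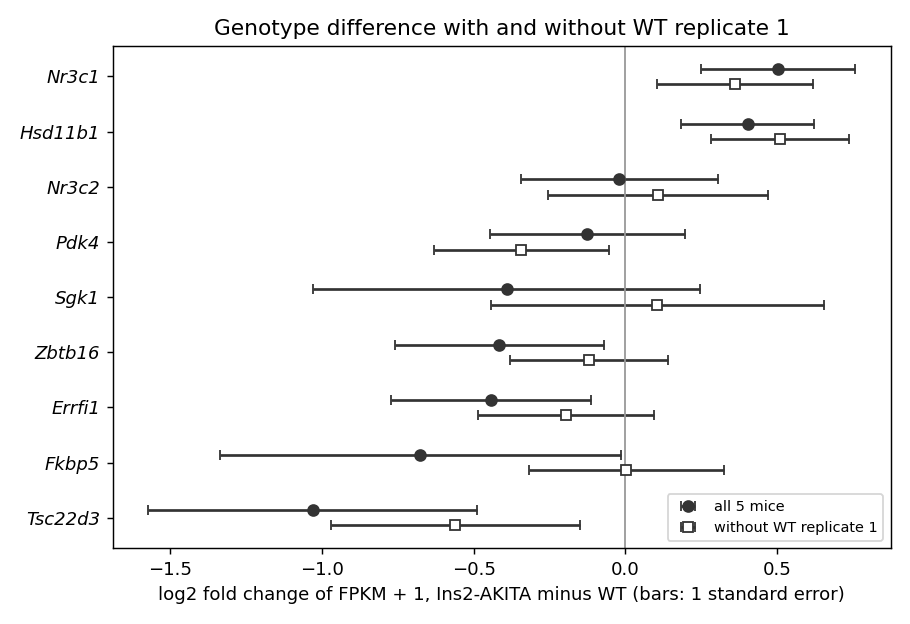
Log2 fold change of FPKM + 1, Ins2-AKITA minus WT, for each member, from limma. Filled circles use all 5 mice, open squares leave out WT replicate 1, and bars are 1 standard error. *Fkbp5* moves from -0.67 to 0.0032 and *Sgk1* from -0.39 to 0.11, while *Hsd11b1* and *Nr3c1* stay above 0.

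The high values of WT replicate 1 were counted in the rest of the pathway after the values had been seen. Among 24 further genes known to respond to glucocorticoids, 23 were tested. This list was written with earlier results of these data known, so its shares describe these mice and are not a test. Of these, 19 were highest in WT replicate 1, where 28.4% of all genes tested were, and 14 were at least 1.5 times their value in every other mouse there, where 7.07% of all genes tested were. In each of the other 4 mice, 0 of the 23 genes stood out by this measure. Of the receptor's chaperones 0 of 10 and of its coregulators 0 of 8 stood out in WT replicate 1, which for such short lists is near the 7.07% of all genes tested. By the count of highest values alone, 1 of the 10 chaperones was highest in WT replicate 1 and 3 of the 8 coregulators were. In WT replicate 3, 7 of the 10 chaperones were highest, where 11.1% of all genes tested were, and 0 stood out by 1.5 times. The receptor elements described above were within 10 kb of a start in 17 of the 24 genes, or 70.8%, beside the 39.6% of all protein-coding genes tested. These genes were listed for their known response to glucocorticoids, and the search was added after the values were seen, so the 2 shares do not make a test. *Mt1* and *Mt2* lie side by side, so their searched stretches overlap, and both are among the 17.

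In 6 of the 14 genes WT replicate 1 was at least 3 times every other mouse. *Lcn2*, an acute-phase protein of inflamed brain vessels and glia, had 41.0, 2.71 and 1.72 FPKM in WT mice, was listed at 0 in Ins2-AKITA replicate 1 and had 1.13 in Ins2-AKITA replicate 2. In Ins2-AKITA replicate 1, 3 fragments of *Lcn2* amount to 2.30 FPKM, so a level like that of WT replicate 3 or Ins2-AKITA replicate 2 could have been missed there. The value in Ins2-AKITA replicate 2 itself rested on at most 1.68 fragments. *Cdkn1a*, the cell cycle inhibitor p21, had 36.1, 6.69 and 6.91 FPKM in the WT mice against 8.07 and 6.01 in the Ins2-AKITA mice. *Hif3a*, a hypoxia-inducible factor subunit, had 16.01, 2.28 and 3.06 FPKM in the WT mice against 2.92 and 1.94 in the Ins2-AKITA mice.

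The other 3 of these genes were *Angptl4*, *Plin4* and *Cebpd*. *Angptl4*, an inhibitor of lipoprotein lipase, had 16.5, 1.88 and 1.93 FPKM in WT, was listed at 0 in Ins2-AKITA replicate 1 and had 3.17 in Ins2-AKITA replicate 2. *Plin4*, a lipid droplet coat protein, had 15.5, 4.66 and 2.22 FPKM in the WT mice against 1.76 and 2.53 in the Ins2-AKITA mice. *Cebpd*, a transcription factor of the acute-phase response that the annotation used here lists as a pseudogene, had 22.4, 6.34 and 4.78 FPKM in the WT mice against 0.93 and 3.26 in the Ins2-AKITA mice. These genes were low in the other 4 mice of both genotypes.

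**Figure D3:**
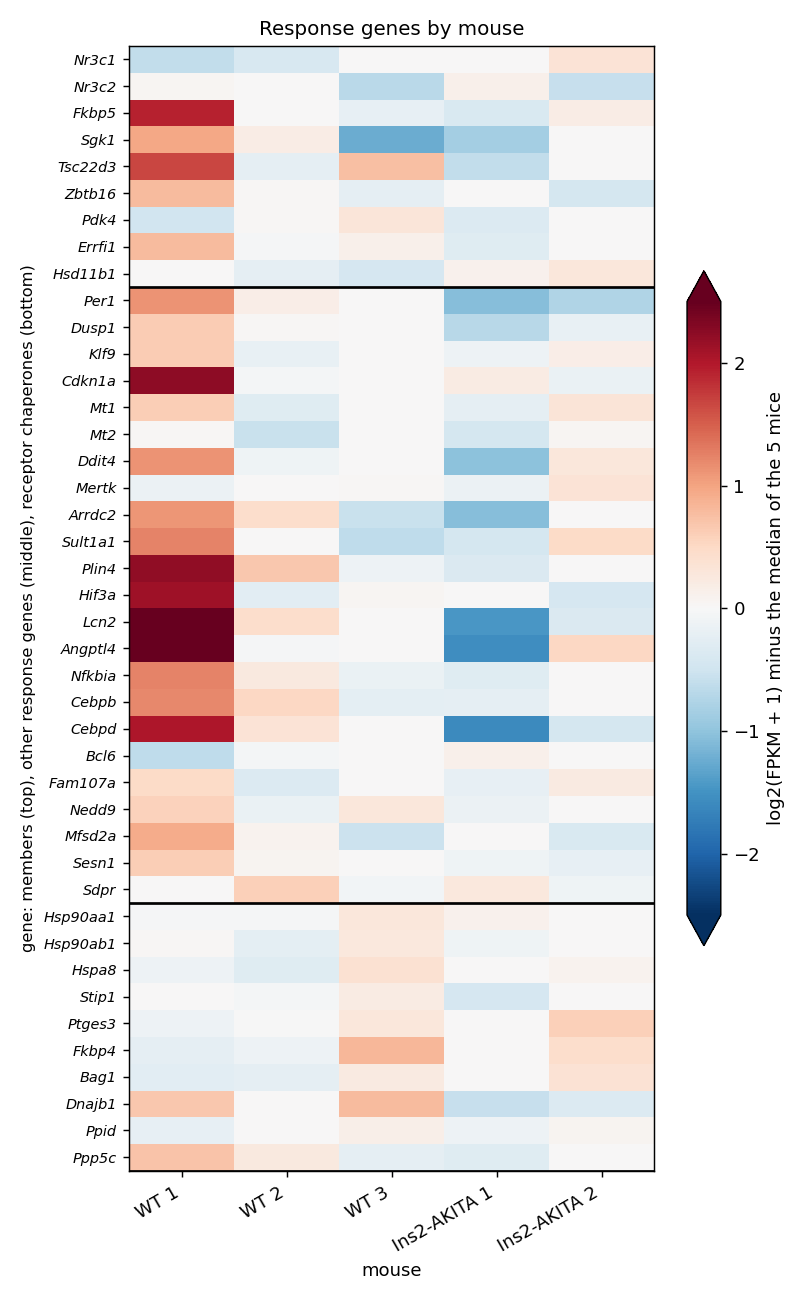
Log2(FPKM + 1) minus the median of the 5 mice, for the 9 members (top), the 23 other response genes tested (middle) and 10 receptor chaperones (bottom), by mouse. Red is above and blue below the median, with colours cut at 2.5. The column of WT replicate 1 is red for most response genes and pale for the chaperones.

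**Figure D4:**
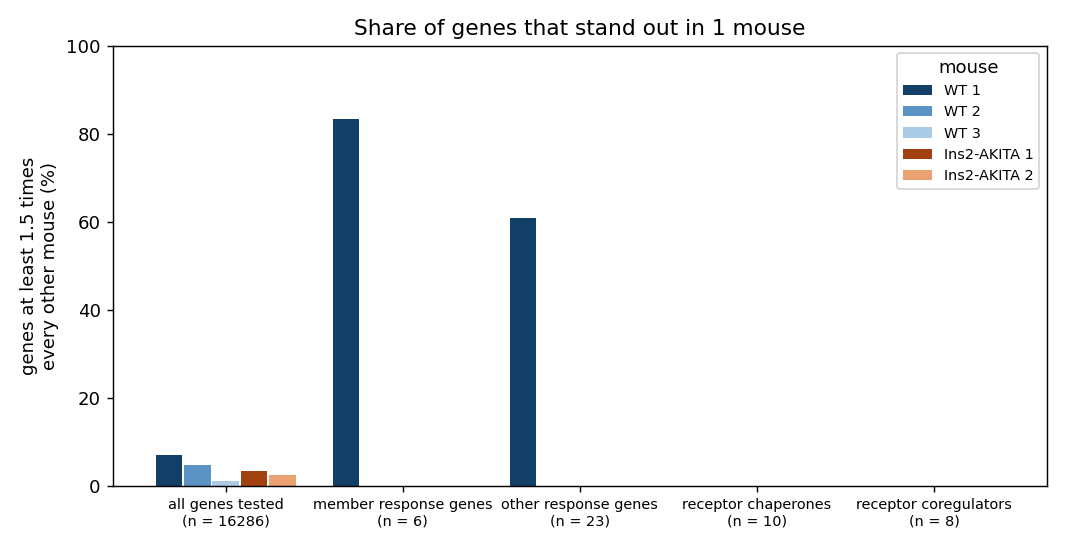
Percent of genes whose FPKM in 1 mouse is at least 1.5 times that in every other mouse, for all genes tested, the 6 member response genes, 23 other response genes, 10 chaperones and 8 coregulators. Bars from 0 are the 5 mice. WT replicate 1 reaches 83.3% and 60.9% in the response lists against 7.07% of all genes. The lists were chosen with earlier results of these data known.

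Between genotypes, 21 of the 23 other response genes were lower and 2 higher in Ins2-AKITA mice on the log2 scale, with a median difference of -0.60, and 0 passed the adjusted threshold. Of all 16286 genes tested, 8718 were lower and 7568 higher. Leaving out WT replicate 1 gave 14 lower, 9 higher and a median of -0.18. For 5 genes, *Per1*, *Dusp1*, *Lcn2*, *Cebpd* and *Sesn1*, both Ins2-AKITA mice lay below every WT mouse, as for 10.3% of all genes tested, and for 0 both lay above, as for 9.24% of all genes tested. *Dusp1*, a phosphatase that turns off MAP kinases, had 33.6, 21.7 and 21.4 FPKM in the WT mice against 12.9 and 18.6 in the Ins2-AKITA mice. *Sesn1*, a stress-induced regulator of growth signalling, lay between 12.4 and 19.4 FPKM in the WT mice and at 11.4 and 10.7 in the Ins2-AKITA mice. *Per1* is a clock gene that glucocorticoids also induce. It had 74.7, 37.8 and 33.6 FPKM in the WT mice against 15.5 and 19.4 in the Ins2-AKITA mice, with a gap between the groups that did not rest on WT replicate 1 alone. The log2 difference between genotypes was -1.34 (standard error 0.37, limma p = 0.0098 before and 0.90 after adjustment, exact permutation p = 0.1, the smallest possible), and -0.99 without WT replicate 1 (standard error 0.23, limma p = 0.0070 before and 0.998 after adjustment). The methods of the study state that all mice were killed at about the same time of the morning.

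*Cebpd* was the other gene of this list at an unadjusted p under 0.05 (log2 difference -1.80, standard error 0.69, limma p = 0.038 before and 0.90 after adjustment, exact permutation p = 0.2). At most 24.8 fragments lay behind its highest value and at most 1.00 behind its lowest. *Lcn2* had the most negative value, -2.36 (standard error 1.20), and *Bcl6*, a transcriptional repressor, the most positive, 0.29 (standard error 0.31), at 4.61, 7.45 and 7.83 FPKM in the WT mice against 8.57 and 7.72 in the Ins2-AKITA mice. *Bcl6* was lowest in WT replicate 1.

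For the 10 chaperone and cochaperone genes the median difference was -0.01 on the log2 scale, and 0 were called. *Dnajb1*, a heat-induced Hsp40 protein, was the single one at an unadjusted p under 0.05. It had 14.7, 8.93 and 16.2 FPKM in the WT mice against 5.67 and 6.88 in the Ins2-AKITA mice (log2 difference -0.94, standard error 0.32, limma p = 0.024 before and 0.90 after adjustment, exact permutation p = 0.2). *Bag1* was at the other end of the list with 0.27 (standard error 0.23). *Hsp90ab1*, which encodes the constitutive Hsp90, lay between 365 and 521 FPKM in the 5 mice. Of the 8 coregulator genes, 0 had an unadjusted p under 0.05, and their median was -0.04. *Ncor1*, a corepressor gene, had the most positive value, 0.23. *Ep300*, a histone acetyltransferase gene, was the coregulator lower in both Ins2-AKITA mice than in every WT mouse (log2 fold change -0.22).

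Of 8 genes of steroid metabolism, 3 were tested, and none had an unadjusted p under 0.05. They ran from -0.25 for *H6pd* to 0.11 for *Srd5a3*. *Hsd11b2*, which inactivates corticosterone in aldosterone-sensitive cells, was under the filter, with 1.06, 0 and 0.43 FPKM in the WT mice against 0.55 and 0.48 in the Ins2-AKITA mice. Of 6 mineralocorticoid target genes 4 were tested, from -0.22 for the sodium pump subunit *Atp1b1* to 0.01 for the sodium channel subunit *Scnn1a*, whose sign turned with a common protein-coding sum. The channel subunit *Scnn1g* was listed at 0 in all mice but WT replicate 1, where its 0.31 FPKM rested on at most 0.99 fragments.

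Among 11 genes related to the members by sequence, 10 were tested and 0 called. *Sgk3*, a relative of *Sgk1*, had 3.41, 6.65 and 6.50 FPKM in the WT mice against 6.72 and 11.05 in the Ins2-AKITA mice, with the most positive value of all the pathway lists (log2 fold change 0.61, standard error 0.38, limma adjusted p = 0.90). *Pdk3* had 14.5, 10.4 and 13.8 FPKM in the WT mice against 18.4 and 17.0 in the Ins2-AKITA mice. Both were higher in each Ins2-AKITA mouse than in any WT mouse, and 2 others, *Pgr* and *Tsc22d1*, were lower in each, beside 9.24% and 10.3% of all genes tested. *Pgr*, the progesterone receptor gene, was the most negative at -0.47 (standard error 0.30), and *Tsc22d1* lay between 120 and 125 FPKM in the 5 mice. Only *Pgr* of these stood out in WT replicate 1, with 18.1 FPKM against 8.28 to 10.9 in the other mice.

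The genes most like the 3 members of widest range were sought by the root mean square difference of log2(FPKM + 1), each gene centred on its own mean over the 5 mice, among 13921 protein-coding genes. The nearest to *Fkbp5* were *Wdr62* (0.17), *Tbc1d17* (0.19) and *Dnahc17* (0.20), beside a median of 0.87 over all these genes. The nearest to *Tsc22d3* were *Apold1* (0.13), *Kif23* (0.16) and *Sik1* (0.17). For *Sgk1* they were *Rsph10b2* (0.042), *Acr* (0.12) and *BC067068* (0.14). *Apold1*, an endothelial gene, had 24.9, 7.18 and 13.4 FPKM in the WT mice against 5.80 and 8.90 in the Ins2-AKITA mice, with the same order of the mice as *Tsc22d3*. Over 5 mice such likeness is a description.

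The levels of cell type markers differed between mice. Endothelial markers (8 genes) summed to 401 to 708 FPKM in WT and 352 to 436 in Ins2-AKITA mice, and none of them was at 0. Markers of other brain cells were also present. The 6 oligodendrocyte markers summed to 885 to 1154 FPKM and the 6 neuronal markers to 661 to 777 FPKM over the 5 mice, with no order by genotype. The 6 astrocyte markers summed to 1494 to 2198 FPKM in WT and 2609 to 2990 in Ins2-AKITA mice, with 3 of 6 higher in both Ins2-AKITA mice than in any WT mouse. The 4 smooth muscle markers summed to 212 to 249 and 129 to 166 FPKM, and all 4 were lower in both Ins2-AKITA mice. So were 2 of 8 endothelial, 1 of 6 pericyte and 1 of 6 neuronal markers, while 2 of 5 fibroblast and 1 of 6 oligodendrocyte markers were higher in both. Of all genes tested, 10.3% were lower in both Ins2-AKITA mice than in every WT mouse and 9.24% higher. In WT replicate 1 all 5 microglia markers had their lowest value, with a sum of 42.1 FPKM against 70.4 to 82.5 in the other mice, and 3 of 6 astrocyte markers were lowest. The 8 immediate early genes, which rise when tissue is handled, summed to 141, 182 and 183 FPKM in the WT mice. Their sums in the Ins2-AKITA mice were 136 and 138 FPKM, below every WT sum. Of the 8 genes, 2 were lower in both Ins2-AKITA mice than in every WT mouse and 0 were higher. In WT replicate 1, 1 of the 8 was highest. The part of handling in the member values was not tested. The part of cell makeup in the member values was not tested.

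The estimated depth was 1137280 to 2866637 fragments per mouse, with WT replicate 3 the deepest and WT replicate 1 at 1162577. Small and ribosomal RNA genes made up 40.6% to 96.7% of the summed FPKM, with 96.7% in WT replicate 1 and 96.6% in WT replicate 2, so values were not rescaled to a common total. The scaling factor by median ratios lay between 0.976 and 1.04.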

How the data were processed

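Brain microvascular RNA of 3 WT and 2 Ins2-AKITA mice was measured as total RNA after depletion of ribosomal and transfer RNA, in stranded libraries. The authors mapped reads to NCBIM37 with TopHat2 2.0.4, removed duplicates with Picard 1.92, tested with Cufflinks 2.2.1 (versions per the submitters' processing notes), and deposited FPKM per Ensembl gene. The program behind the single-mouse values is not given in the sources used here. Removing duplicates can lower highly expressed short genes.

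Identifiers were matched to GENCODE vM1 of NCBIM37 (37197 of 37982), and rows sharing a symbol were summed. Testing was limited to the 16286 symbols whose FPKM averaged 1 or more, on log2(FPKM + 1) with limma 3.58.1 in R 4.3.3 (lmFit, eBayes with trend, genotype as the only factor, two-sided, Benjamini-Hochberg over all genes tested). The fit was tested on simulated data. Exact two-sided permutation tests used all 10 splits of the mice. Other steps used Python 3.11.15. Where FPKM steps allowed, depth was estimated from low values of genes with 1 transcript longer than 1000 bases, of which 97.43% to 97.83% per mouse lay within 0.05 of a whole number of fragments. Floors of 3 fragments cover counting error only.

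The members and gene lists were chosen with earlier results of these data known. Named genes are all members, the extremes of each list, genes at an unadjusted p under 0.05, genes whose groups do not overlap and genes at least 3 times higher in WT replicate 1 than in every other mouse, beside the 3 genes most like each of the 3 members of widest range; the rules on groups that do not overlap and on 3 times higher values, the counts of genes standing out in a mouse and the search within 10 kb of starts were added after the values were seen. P-values from limma set the difference between genotypes against the spread between these mice, which the fit draws toward a trend over all genes. The alternatives were another pseudocount, filter, scaling, prior, row choice, a replicate block, and each mouse left out. Not every gene under these rules is reported here.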

Additional observations from a re-analysis of the deposited data

How the results depend on the processing

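The counts of members (0) and of other pathway genes (0) past an adjusted p of 0.05 in limma were 0 under every alternative tried. At an unadjusted p under 0.05 the main fit had 0 members and 3 other pathway genes. In the alternatives with all mice and no block, the members stayed at 0. The other pathway genes there numbered 4 with a pseudocount of 0.1 and with a common protein-coding sum, 2 with a constant prior and 3 otherwise. Of 446 fold changes of 32 named genes under the alternatives, 429 kept their direction and side of the threshold and 17 changed sign. With a common protein-coding sum *Scnn1a* was -0.017 and the members lower in both Ins2-AKITA mice than in every WT mouse numbered 1. With median-ratio scaling *Nr3c2* was 0.0067. The genes called lower (4) became 2 with no filter, with the filter at 5 and with a constant prior, which also called 1 higher.

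With the replicate block *Pdk4* was 0.052, and no call of a member changed. The unadjusted limma p was under 0.05 for 1 member (*Nr3c1*, limma adjusted p = 0.60), for 1 other pathway gene and for 1249 genes in all. No Ins2-AKITA mouse shares the number of WT replicate 3, so the block takes that mouse out of the genotype difference. The fold changes with the block therefore equal those without WT replicate 3 and are not a separate result. Same-numbered mice of the 2 genotypes deviated from their group means with a mean correlation of 0.0084 (other pairs -0.0042). In a group of 2 each deviation mirrors the other, so the numbers cannot be shown to pair the mice.

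With 1 mouse left out in turn, the median of the members ran from -0.53 to 0.0032, genes called higher from 0 to 10 and lower from 2 to 10. Members with every remaining Ins2-AKITA mouse above every remaining WT mouse ran from 1 to 2, and below from 1 to 3. The 3 came from leaving out Ins2-AKITA replicate 2, where Ins2-AKITA replicate 1 was the only mouse of its group. Groups with fewer mice overlap less easily, and the shares of all genes in these fits are not given here, so these counts have no background. Over the same fits *Nr3c2* ran from -0.37 to 0.33, *Fkbp5* from -1.07 to 0.0032, *Sgk1* from -0.99 to 0.11, *Pdk4* from -0.34 to 0.052, *Cdkn1a* from -1.10 to 0.031, *H6pd* from -0.63 to 0.13, *Scnn1a* from -0.054 to 0.092 and *Srd5a3* from -0.11 to 0.33. At an unadjusted p under 0.05 there was 1 member without WT replicate 2 (*Tsc22d3*), 1 without WT replicate 3 (*Nr3c1*, limma adjusted p = 0.56) and 0 without each other mouse, and the other pathway genes numbered 6 without WT replicate 3, 3 without WT replicate 2, 1 without WT replicate 1 or Ins2-AKITA replicate 2 and 0 without Ins2-AKITA replicate 1. A lone Ins2-AKITA mouse is assumed to vary like the WT mice. The causes were not tested. Depth limits *Cebpd*, *Lcn2*, *Angptl4* and *Pdk4*. It also limits the lowest values of *Plin4*, *Cdkn1a*, *Hif3a* and *Dnajb1*, which rested on at most 11.1, 13.1, 15.5 and 13.1 fragments.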
